A study of Homo sapiens with 6 samples.

Results

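The mRNAs of AMP-activated protein kinase (AMPK) subunits, of the LKB1 complex that activates AMPK and of the scaffold AXIN1 were measured in HT29 cells after knockdown of the glycolytic enzyme ALDOA. The set is defined by gene symbol and was listed with earlier results of these data known. It holds 10 of the 28278 genes in the count files: PRKAA1 and PRKAA2 (catalytic α subunits), PRKAB1 and PRKAB2 (scaffolding β subunits), PRKAG1 and PRKAG2 (nucleotide-binding γ subunits), STK11 (LKB1), CAB39 (MO25α), STRADA and AXIN1. Of these, 9 passed the filter on low counts and were tested, and PRKAA2 did not. At an adjusted p < 0.05, PRKAG2 and AXIN1 were lower with siALDOA, and 0 of the 9 tested genes were higher, where 5.29% of all tested genes were lower and 4.36% higher. PRKAG2 kept its call under all 16 alternative settings, and AXIN1 lost it under 3. The mRNA of the catalytic subunit PRKAA1 differed by less than the spread between replicates.

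AMPK is a heterotrimer of 1 α, 1 β and 1 γ subunit that senses the energy state of the cell. AMP and ADP bind the γ subunit, and LKB1, held in an active form by the pseudokinase STRADα and the scaffold MO25α, phosphorylates the activation loop of the α subunit. In glucose-starved cells, aldolase that is not occupied by its substrate fructose-1,6-bisphosphate is known to favour a complex on the lysosome, in which AXIN brings LKB1 to AMPK next to the v-ATPase and the Ragulator. AXIN1 is also a scaffold of the complex that marks β-catenin for destruction. mRNA counts report neither the phosphorylation nor the location of these proteins.

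HT29 is a human colorectal adenocarcinoma line with epithelial morphology. The knockdown group (siALDOA, genotype labelled ALDOA KD) received siRNA against ALDOA and the control group (siControl, genotype labelled WT) a scrambled siRNA. Total RNA was taken 48 h later from 3 biological replicates per group. The sample titles name only siALDOA and do not say how many siRNAs it stands for. Untransfected cells are not among the samples. Effects of ALDOA loss and of the siRNA on other transcripts therefore cannot be told apart. Whether the replicates were separate cultures is not stated beyond the word biological, so p-values measure the spread between these libraries.

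The libraries held 27277538 to 33237914 counts on genes, and in each group 1 library stood apart in its share of ribosomal RNA genes. The share was 13.1% in siALDOA replicate 1, against 7.71% and 8.11% in replicates 2 and 3, and 8.15% in siControl replicate 3, against 17.4% and 15.3% in replicates 1 and 2. On unscaled counts these libraries differed most from the others of their group (chi-square per degree of freedom 34.5 and 39.4 against 5.09, and 58.2 and 90.7 against 11.4). That measure includes the ribosomal RNA genes, so it is not separate from their share, and it was not computed without them. Counts were scaled to counts per 1e6 counts of the library with TMM factors (CPM). ALDOA was at 283, 305 and 280 CPM with siALDOA and 592, 637 and 668 CPM with siControl, so the targeted mRNA was lower in each siALDOA library (log2 fold change -1.13). Of 10 colorectal epithelial markers 9 passed the filter, 8 of them with log2 fold changes below 0 (median -0.14), and 5 were lower in every siALDOA library than in any siControl library, as 14.6% of all tested genes were. CEACAM5, at 7.69, 5.86 and 8.94 CPM against 10, 9.96 and 10.8 CPM, did not pass the test (log2 fold change -0.46, edgeR adjusted p = 0.0516). The keratin KRT8 was at 5090 ± 198 CPM (siALDOA) and 5600 ± 190 CPM (siControl; SD, n = 3) and EPCAM at 374 ± 35.8 and 341 ± 16.1 CPM, and neither passed the test. KRT18 was lower with siALDOA (log2 fold change -0.28, standard error 0.072, edgeR adjusted p = 0.0152) and LGALS4 was listed at 0. Of 12 fibroblast, endothelial and blood markers, 3 passed the filter. COL1A1 was at 1.73 to 2.77 CPM and did not pass the test. CD14 was higher with siALDOA, at 16.2, 17.1 and 17.6 CPM against 12.5, 14.5 and 13.6 CPM (log2 fold change 0.32, edgeR adjusted p = 0.0485). PECAM1 was lower, at 0.647, 1.2 and 0.422 CPM against 1.89, 1.38 and 2.09 CPM (log2 fold change -1.23, edgeR adjusted p = 0.0429). The part of these cell type markers in the results was not tested. The other 9, among them COL1A2, CDH5 and PTPRC, had at most 8 counts in any library.

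PRKAG2 and AXIN1 are the members whose mRNA changed, and PRKAG1 is the paralog of PRKAG2 that did not pass the test, so their promoter sequences are shown for reference. Each line gives 250 bases before to 50 bases after the transcription start from RefSeq (GRCh38.p14), 5′ to 3′ on the strand of the gene. All 3 genes lie on the minus strand. Capitals mark GC boxes (GGGCGG, or CCGCCC on the other strand) and ETS cores (CCGGAAG or CTTCCGG).
PRKAG2, chr7:151877066-151877365: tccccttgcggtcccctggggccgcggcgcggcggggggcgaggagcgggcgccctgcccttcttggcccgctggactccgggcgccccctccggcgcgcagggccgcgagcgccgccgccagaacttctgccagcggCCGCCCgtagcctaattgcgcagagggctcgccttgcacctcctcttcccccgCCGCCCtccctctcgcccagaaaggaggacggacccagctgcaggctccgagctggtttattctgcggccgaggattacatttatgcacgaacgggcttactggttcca
PRKAG1, chr12:49018727-49019026: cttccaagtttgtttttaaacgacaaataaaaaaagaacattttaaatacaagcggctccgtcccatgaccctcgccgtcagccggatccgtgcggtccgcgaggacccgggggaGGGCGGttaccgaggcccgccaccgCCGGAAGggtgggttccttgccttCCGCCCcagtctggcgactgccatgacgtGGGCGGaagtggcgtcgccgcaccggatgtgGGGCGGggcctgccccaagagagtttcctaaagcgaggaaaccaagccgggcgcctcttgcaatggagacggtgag
AXIN1, chr16:352674-352973: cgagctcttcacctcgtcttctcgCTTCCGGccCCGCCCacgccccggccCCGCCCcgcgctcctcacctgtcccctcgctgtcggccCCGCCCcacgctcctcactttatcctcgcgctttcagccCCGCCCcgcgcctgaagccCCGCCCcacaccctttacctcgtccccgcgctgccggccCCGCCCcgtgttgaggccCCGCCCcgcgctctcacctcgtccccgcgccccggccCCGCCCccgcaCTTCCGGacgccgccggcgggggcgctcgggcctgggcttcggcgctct
The AXIN1 window was 78% G and C and held 8 GC boxes and 2 ETS cores. The window of PRKAG2 was 71.3% G and C with 2 GC boxes and 0 ETS cores, and that of PRKAG1 61.7% with 4 GC boxes and 1 ETS core. Of 35116 promoter windows of this length in the same table, 45% held a GC box and 10.3% an ETS core. None of the 3 windows held CCAAT (34.6% of all windows, either strand), CACGTG (7.26%), TGACGTCA (1.85%), CTTTGAA (4.43%) or GGAATG (14%). The table lists 5 starts for PRKAG2, and the one shown belongs to its MANE Select transcript. Of the other 4, start 2 held GGAATG, start 3 an ETS core, start 4 CCAAT and start 5 had 4 GC boxes. Which start HT29 cells used was not measured.

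Levels were compared between genes after division of CPM by the length of the MANE Select transcript, the transcript agreed on by RefSeq and Ensembl (CPM per kb). In siControl cells PRKAA1 was highest, at a mean of 45 CPM per kb, followed by CAB39 at 30.4 and PRKAG1 at 28.3. The ranges of CAB39 (29.3 to 31.5 CPM per kb) and PRKAG1 (25.9 to 29.9) overlapped, so the order of these neighbours is not resolved. AXIN1 was at 21.0, STK11 at 19.1, PRKAB1 at 14.1, PRKAB2 at 7.23, PRKAG2 at 5.45 and STRADA at 4.16 CPM per kb, and these neighbours did not overlap over the 3 siControl libraries. PRKAA2 was at 0. The order differed with siALDOA at 2 places. AXIN1, at 17.9, 16.7 and 18.2 CPM per kb, lay below STK11, at 20.7, 20 and 21.9, whereas in siControl AXIN1 (21.2, 20.1 and 21.7) lay above STK11 (18.5, 19.3 and 19.5). PRKAG2, at 4.25, 3.77 and 3.89 CPM per kb with siALDOA, lay below STRADA, at 4.69, 4.53 and 4.6.

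**Figure D1:**
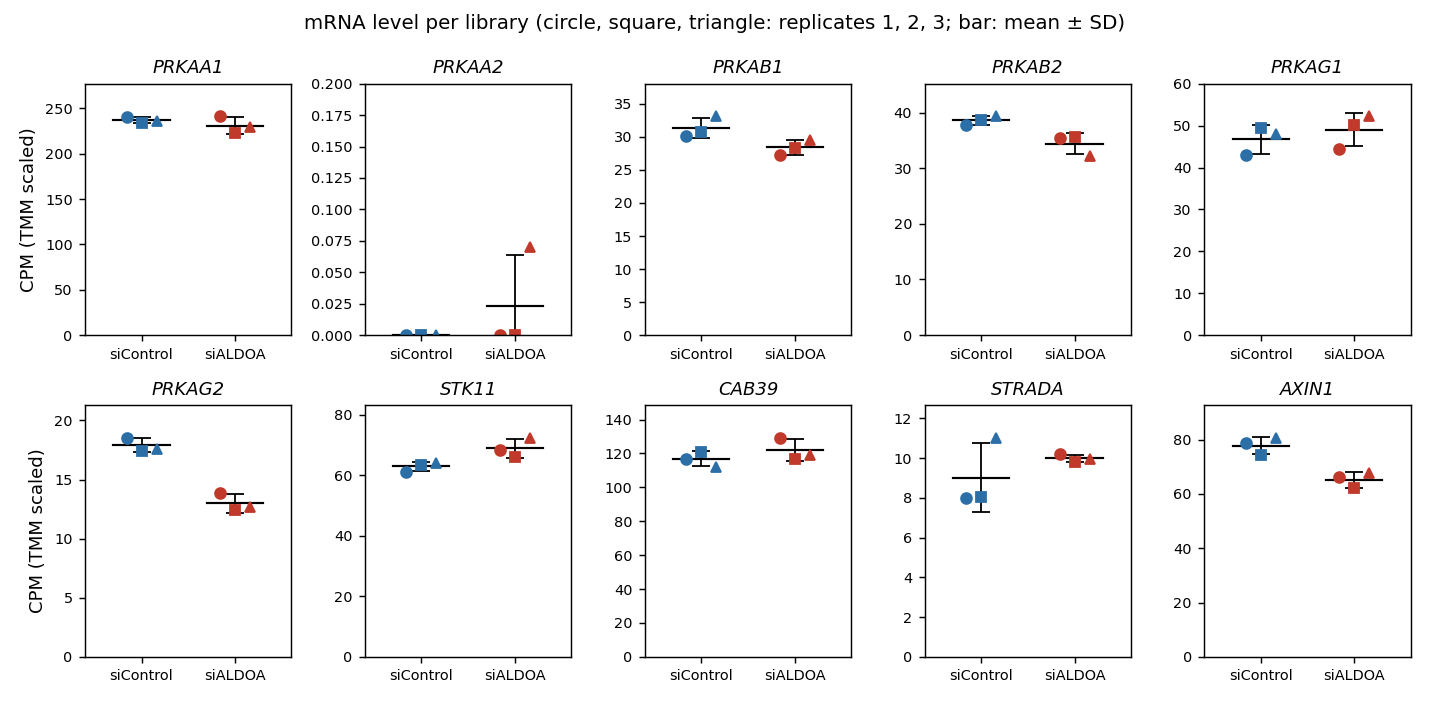
Scaled counts (CPM, linear axes from 0, a separate scale for each gene) of the 10 genes in the 3 siControl (blue) and 3 siALDOA (red) libraries, with 1 symbol per library and bars at the mean ± SD. PRKAG2 (12.4 to 13.9 against 17.4 to 18.5 CPM) and AXIN1 (62.0 to 67.6 against 74.3 to 80.5 CPM) are lower in every siALDOA library, while the points of PRKAA1, PRKAG1, CAB39 and STRADA overlap.

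The catalytic subunit α1, encoded by PRKAA1 (ENSG00000132356; hg38 chromosome 5, 40759389 to 40798374, minus strand), was at 241, 223 and 229 CPM in siALDOA replicates 1, 2 and 3 and 240, 234 and 236 CPM in siControl replicates 1, 2 and 3. The siALDOA values lay on both sides of the siControl values. The log2 fold change was -0.037 (standard error 0.055, edgeR quasi-likelihood test, adjusted p = 0.740), and its 95% interval ran from a decrease of 10% to an increase of 5.51%. Scaling by library totals only turned the sign, with a log2 fold change of 0.035. α2, encoded by PRKAA2 (ENSG00000162409; chromosome 1, 56645314 to 56715335, plus strand), had 2 counts in siALDOA replicate 3 and 0 in the other 5 libraries. A count of 0 allows up to 3 counts, or 0.091 to 0.108 CPM in these libraries (counting error only).

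The β subunit joins α to γ and binds glycogen. PRKAB1 (ENSG00000111725; chromosome 12, 119667864 to 119681624, plus strand), which encodes β1, was at 27.3, 28.3 and 29.5 CPM with siALDOA and 30.2, 30.7 and 33.1 CPM with siControl. Every siALDOA library lay below every siControl library, as it did for 14.6% of all tested genes. The difference had a log2 value of -0.15 (standard error 0.079, 95% interval -0.31 to 0.019) and did not pass the test (edgeR adjusted p = 0.278). PRKAB2 (ENSG00000131791; chromosome 1, 147155106 to 147172550, minus strand), which encodes β2, was at 35.4, 35.6 and 32.2 CPM with siALDOA and 37.8, 38.7 and 39.3 CPM with siControl, again without overlap. Its log2 fold change of -0.17 (standard error 0.074, 95% interval -0.32 to -0.012) did not pass after adjustment either (edgeR adjusted p = 0.174). The summed β level was 18.9, 19.4 and 19.3 CPM per kb with siALDOA and 20.7, 21.1 and 22.3 CPM per kb with siControl. PRKAB2 made up 33.5% ± 2.04 (SD, n = 3) of this sum with siALDOA and 33.9% ± 0.711 (SD, n = 3) with siControl, and these ranges overlapped.

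The γ subunit carries the sites that bind AMP, ADP and ATP. PRKAG2 (ENSG00000106617; chromosome 7, 151556124 to 151877214, minus strand), which encodes γ2, had 388, 372 and 362 counts with siALDOA and 578, 531 and 581 counts with siControl. On the CPM scale these were 13.9, 12.4 and 12.7 with siALDOA and 18.5, 17.4 and 17.6 with siControl, so the highest siALDOA library lay below the lowest siControl library. PRKAG2 fell by 27.1% (95% interval -36.9% to -15.8%), a log2 fold change of -0.46 (standard error 0.10, edgeR adjusted p = 0.00496). It was the 567th of the 15307 tested genes by p. The call was kept under each of the 16 alternatives, with log2 fold changes from -0.51 to -0.38 and adjusted p from 4.08e-04 to 0.0315. In bulk RNA a lower level per cell and fewer cells that express the gene cannot be told apart.

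PRKAG1 (ENSG00000181929; chromosome 12, 49002274 to 49018807, minus strand), which encodes γ1, was at 44.5, 50.2 and 52.2 CPM with siALDOA and 42.9, 49.5 and 48.1 CPM with siControl. The groups overlapped, and the log2 fold change was 0.064 (standard error 0.076, 95% interval -0.10 to 0.22, edgeR adjusted p = 0.672). PRKAG1 shares 514 exon bases with the antisense gene DDN-AS1, which had 119 to 161 counts per library, and 2061 exon bases with a readthrough gene on its own strand that has no row in the files. Whether counting used strand is not given in the sources used here, so reads in these stretches cannot be assigned with certainty. γ3, encoded by PRKAG3, had 0 to 6 counts per library.

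The summed γ level, PRKAG1 plus PRKAG2, was 31.1, 34.1 and 35.4 CPM per kb with siALDOA and 31.6, 35.2 and 34.4 CPM per kb with siControl, with overlapping groups. PRKAG2 made up 13.7%, 11.1% and 11% of it with siALDOA and 17.9%, 15.1% and 15.6% with siControl. The mean share was 11.9% ± 1.51 (SD, n = 3) against 16.2% ± 1.5 (SD, n = 3), a difference of -4.3 percentage points with no overlap, or -6.58 points when counts were not divided by length. The log2 ratio of PRKAG2 to PRKAG1 counts within a library was -1.68, -2.02 and -2.03 with siALDOA and -1.21, -1.51 and -1.45 with siControl. The ratio differed by -0.52 between the groups. An exact two-sided permutation test gave p = 0.1, the smallest value 3 libraries against 3 can give, and 0.2 after adjustment over the 6 gene pairs compared in this way. For PRKAB2 and PRKAB1 the ratio differed by -0.022 (exact permutation p = 0.9, adjusted 0.9).

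**Figure D2:**
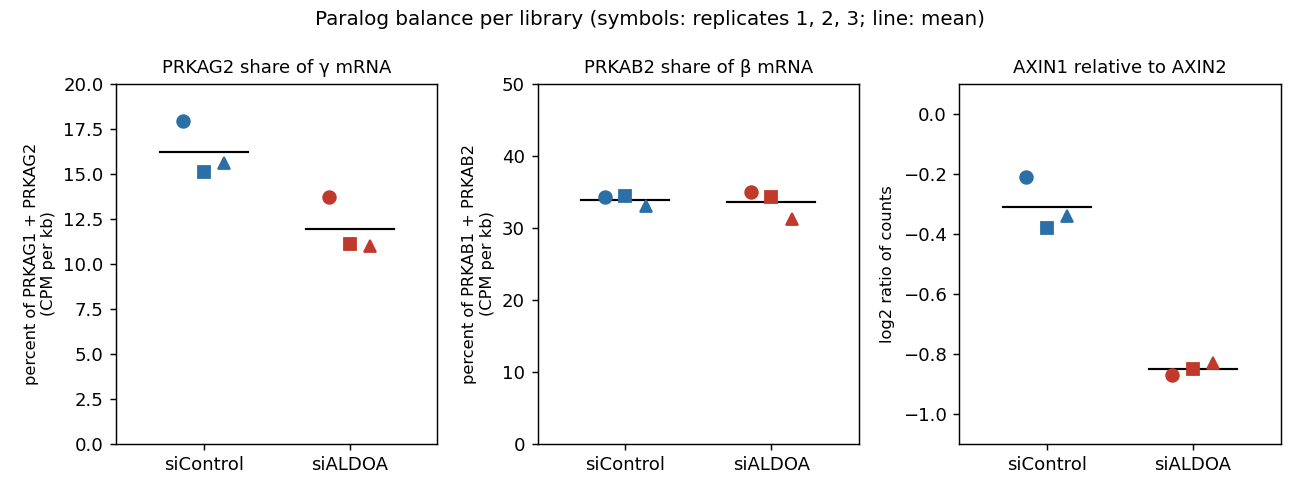
PRKAG2 as a percent of PRKAG1 plus PRKAG2 (left) and PRKAB2 as a percent of PRKAB1 plus PRKAB2 (middle), both from CPM per kb, and the log2 ratio of AXIN1 to AXIN2 counts (right), in 3 siControl (blue) and 3 siALDOA (red) libraries with a line at each mean. The PRKAG2 share (mean 16.2% against 11.9%) and the AXIN1 ratio (mean -0.31 against -0.85) lie apart between the groups, and the PRKAB2 share overlaps.

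LKB1 is the tumor suppressor kinase that phosphorylates AMPK. STK11 (ENSG00000118046; chromosome 19, 1177558 to 1228431, plus strand) was at 68.3, 65.9 and 72.2 CPM with siALDOA and 61.1, 63.4 and 64.1 CPM with siControl. It was the only member whose siALDOA libraries all lay above the siControl libraries. The log2 fold change of 0.13 (standard error 0.063, 95% interval -0.0024 to 0.26, edgeR adjusted p = 0.221) did not pass the test. STK11 shares 145 exon bases with CBARP on the opposite strand, which had 211 to 276 counts per library. CAB39 (ENSG00000135932; chromosome 2, 230712842 to 230821075, plus strand), the MO25α scaffold, was at 129, 117 and 119 CPM with siALDOA and 117, 121 and 112 CPM with siControl. The groups overlapped (log2 fold change 0.061, standard error 0.060, edgeR adjusted p = 0.604).

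STRADA (ENSG00000266173; chromosome 17, 63682336 to 63741986, minus strand), the pseudokinase STRADα, had 283, 295 and 283 counts with siALDOA and 249, 246 and 363 counts with siControl, which is 10.2, 9.82 and 9.96 CPM against 7.99, 8.06 and 11 CPM. siControl replicate 3 lay above all siALDOA libraries and the other siControl libraries below them. The log2 fold change was 0.14 (standard error 0.14, 95% interval -0.14 to 0.43, edgeR adjusted p = 0.582), and 0.31 without siControl replicate 3, still short of the threshold. STRADA shares 1970 exon bases with a gene on its own strand that has no row in the files. The paralogs STRADB and CAB39L, at 13.6 to 17.3 CPM and 17.7 to 25.5 CPM, did not pass the test (edgeR adjusted p = 0.578 and 0.187). The ratio of STK11 to PRKAA1 counts was higher by 0.17 on the log2 scale with siALDOA, with groups apart (exact permutation p = 0.1, adjusted 0.2).

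AXIN1 (ENSG00000103126; chromosome 16, 287440 to 352723, minus strand) had 1843, 1862 and 1920 counts with siALDOA and 2453, 2269 and 2651 counts with siControl. These were 66.2, 62.0 and 67.6 CPM against 78.7, 74.3 and 80.5 CPM, without overlap. AXIN1 fell by 16.2% (95% interval -23.6% to -8.08%), a log2 fold change of -0.25 (standard error 0.064, edgeR adjusted p = 0.0132). The direction was kept under all 16 alternatives and the call under 13. It was lost when libraries were scaled by their totals only (-0.18, adjusted p = 0.201), without siALDOA replicate 2 (-0.22, adjusted p = 0.0810) and without siControl replicate 3 (-0.23, adjusted p = 0.0890). Without siALDOA replicate 1 the value was -0.27 (adjusted p = 0.0116), and with ribosomal RNA genes left out it was -0.25 (adjusted p = 0.0130). siControl replicate 3 is the control library with the low ribosomal RNA share.

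AXIN2, the paralog that β-catenin induces, moved the other way, at 121, 112 and 120 CPM with siALDOA and 91.2, 96.9 and 102 CPM with siControl. It rose by 0.29 on the log2 scale (standard error 0.062, edgeR adjusted p = 0.00480), and the call was kept under all 16 alternatives. The log2 ratio of AXIN1 to AXIN2 counts was -0.87, -0.85 and -0.83 with siALDOA and -0.21, -0.38 and -0.34 with siControl. These ratios differed by -0.54, with an exact two-sided permutation p = 0.1, the smallest possible, and 0.2 after adjustment.

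As a group, 4 of the 9 tested members had log2 fold changes above 0 and 5 below, with a median of -0.037 against 0.0016 for all tested genes. The number of higher members was 0 also with DESeq2 and limma-voom. At an unadjusted p < 0.05, 0 members were higher and 3 lower (PRKAB2, PRKAG2 and AXIN1), where 11.3% of all tested genes were higher and 12.3% lower. The 2 called members compare with 9.66% of all tested genes called in either direction, 4.36% higher and 5.29% lower. The groups did not overlap for 5 of the 9, higher for STK11 and lower for PRKAB1, PRKAB2, PRKAG2 and AXIN1. Over all tested genes they did not overlap for 27.7%, 13.1% higher and 14.6% lower. At the unadjusted threshold of 0.01 used in the study's methods, the same 2 members passed in the edgeR fit across all genes, against 12.5% of all tested genes.

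**Figure D3:**
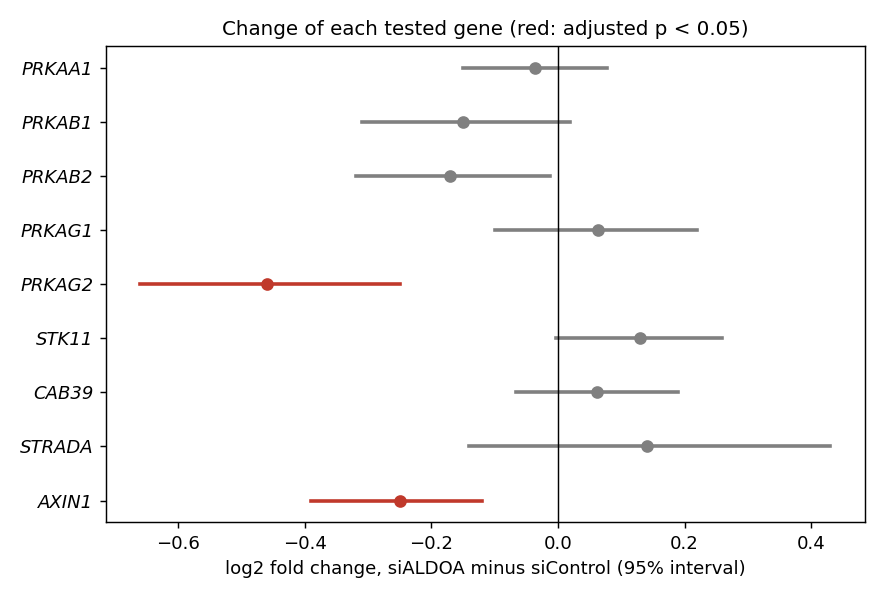
Log2 fold change (siALDOA against siControl) of the 9 tested members with 95% intervals from the edgeR fit, n = 3 libraries per group, in red where the adjusted p is below 0.05. The intervals of PRKAG2 (-0.66 to -0.25), AXIN1 (-0.39 to -0.12) and PRKAB2 (-0.32 to -0.012) lie below 0, and only PRKAG2 and AXIN1 pass after adjustment over 15307 genes.

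**Figure D4:**
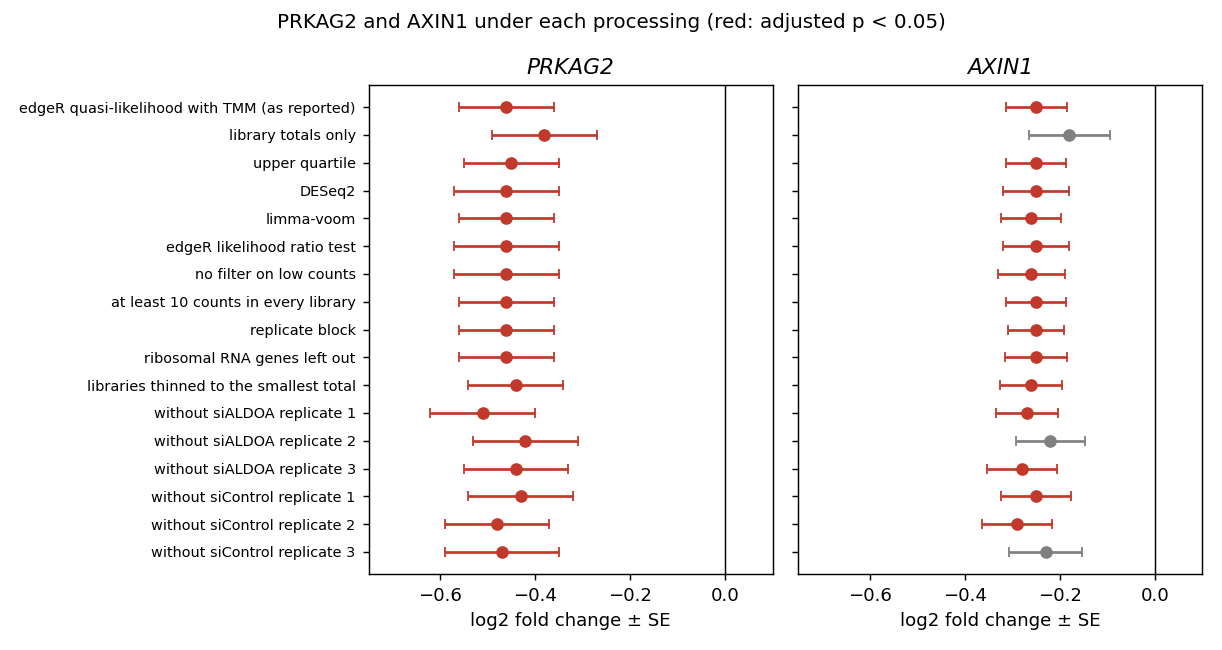
Log2 fold change of PRKAG2 and AXIN1 in the fit reported here and under 16 other settings, with bars of 1 standard error and red where the adjusted p is below 0.05. PRKAG2 stays between -0.51 and -0.38 and is called each time, and AXIN1 stays between -0.29 and -0.18 and loses the call at 3 settings.

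Over the 6 libraries, the tested genes whose log2 CPM followed PRKAG2 most closely were ATP1B1, ARIH2 and GCNT3 (Pearson's r = 0.998, 0.997 and 0.997). Those closest to AXIN1 were FAM168B, PTMS and CCNB3 (r = 0.995 each). These values describe 6 points that share 2 treatment groups, and the genes were picked from 15307 as the closest.

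Genes around the AMPK pathway were read from 8 lists of 98 genes, of which 90 were tested. Of these, 3 were higher (3.33%) and 6 were lower (6.67%), close to the 4.36% and 5.29% of all tested genes. With library totals only the counts were 6 higher and 3 lower, where 5.85% of all tested genes were higher and 1.82% lower. Without siALDOA replicate 1 the counts were 6 and 7, where 4.12% of all tested genes were higher and 5.05% lower. The median log2 fold change was -0.036, with 37 genes above 0 and 53 below. The groups did not overlap for 15 genes higher and 17 lower, or 35.6% of the 90, against 27.7% of all tested genes. The lists follow by role.

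Of the other kinases that activate AMPK, their partner TAB1 and the paralogs PRKAG3, STRADB and CAB39L, 6 of 7 were tested (all but PRKAG3) and 0 passed with edgeR, DESeq2 or limma-voom (median 0.041). At an unadjusted p < 0.05, 1 of the 6 was higher and 2 were lower, against 23.6% of all tested genes in either direction. The smallest p belonged to CAMKK2, the calcium-dependent AMPK kinase. It was at 56.8, 57.8 and 59.0 CPM with siALDOA and 61.8, 64.3 and 65.9 CPM with siControl (log2 fold change -0.15, standard error 0.063, edgeR adjusted p = 0.162). CAMKK1 was at 7.74 to 8.75 CPM against 9.17 to 11.1 CPM (-0.29, standard error 0.13, adjusted p = 0.167). Of the phosphatases and ubiquitin regulators that act on AMPK, 13 of 14 were tested, with a median of -0.13. The ubiquitin ligase WWP1 was lower, at 72.9, 70.8 and 64.7 CPM against 96.9, 88.8 and 92.1 CPM (log2 fold change -0.42, standard error 0.065, edgeR adjusted p = 2.17e-04), and the other 12 did not pass.

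The Ragulator anchors signalling complexes to the lysosome, and all 5 of its genes were tested. LAMTOR1, the lipid-anchored subunit that holds the others, was at 29.6, 35.2 and 32.0 CPM with siALDOA and 41.8, 48.4 and 47.3 CPM with siControl. It fell by 0.51 on the log2 scale (standard error 0.081, edgeR adjusted p = 3.01e-04), and the call was kept under all 16 alternatives. LAMTOR2, LAMTOR3, LAMTOR4 and LAMTOR5 had log2 fold changes of 0.15, -0.075, 0.18 and -0.038, none past the threshold (adjusted p from 0.118 to 0.820). Among 8 partners and regulators of AXIN in the β-catenin destruction complex, AXIN2 was higher and the other 7 did not pass, with APC at -0.12, GSK3B at -0.11 and CTNNB1, which encodes β-catenin, at 0.071.

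LKB1 activates further kinases of the AMPK family, and 0 of the 11 tested of these 12 passed with edgeR, DESeq2 or limma-voom (median -0.027). At an unadjusted p < 0.05, 1 of the 11 was higher and 0 lower, where 23.6% of all tested genes passed. MARK3, a microtubule-affinity kinase, had the smallest p, at 46.4, 43.7 and 43.8 CPM with siALDOA and 40.6, 37.3 and 41.6 CPM with siControl (log2 fold change 0.16, standard error 0.071, edgeR adjusted p = 0.166). NUAK1 was next, at -0.22 (standard error 0.14, adjusted p = 0.361), with overlapping groups, and at -0.08 without siALDOA replicate 2 and -0.38 without siALDOA replicate 3. MARK1 did not pass the filter, at 5, 0 and 1 counts in the siALDOA and 17, 23 and 4 in the siControl libraries. It was called lower with no filter on low counts (edgeR adjusted p = 0.0374), without siALDOA replicate 1 (0.022) and without siControl replicate 3 (0.0259), and not called without siALDOA replicate 2 (0.185) or without siALDOA replicate 3 (0.16).

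Of 27 AMPK substrates 25 were tested, with a median of -0.035, and AMOTL1 and EEF2K were listed at 0. TXNIP, an inhibitor of glucose uptake, was higher at 207, 222 and 180 CPM against 145, 167 and 169 CPM (log2 fold change 0.34, standard error 0.074, edgeR adjusted p = 0.00500, and 0.0506 without siALDOA replicate 2). KLC2, a kinesin light chain, was lower at 28, 33.1 and 34.4 CPM against 43.4, 39.3 and 41.3 CPM (-0.38, standard error 0.083, adjusted p = 0.00509, and 0.0557 with library totals only). The other 23 did not pass. ACACA, the acetyl-CoA carboxylase by which AMPK activity is often read, had a log2 fold change of -0.033 (edgeR adjusted p = 0.797), and PPARGC1A one of 1.16 (standard error 0.51, adjusted p = 0.171). PPARGC1A was at 2.23, 0.699 and 0.528 CPM with siALDOA and 0.577, 0.655 and 0.303 CPM with siControl, and its log2 fold change was 0.27 without siALDOA replicate 1. These 2 were named after their values were seen.

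Enzymes that set the adenine nucleotide pool were tested for 11 of 13 genes (median -0.016). AMPD2, an AMP deaminase, was higher at 48.7, 49.6 and 51.5 CPM against 42.6, 38.2 and 41.5 CPM (log2 fold change 0.29, standard error 0.069, edgeR adjusted p = 0.00952, and 0.0778 without siControl replicate 2). AK3, a mitochondrial adenylate kinase, was lower at 66.9, 57.7 and 61.1 CPM against 78.7, 76.6 and 79.7 CPM (-0.34, standard error 0.066, adjusted p = 0.00200). AMPD1 was listed at 0. Among 12 regulators of the response to energy stress 11 were tested (median -0.11), and SESN2 was listed at 0. DDIT4, an mTORC1 inhibitor, was lower at 157, 172 and 147 CPM against 184, 214 and 200 CPM (-0.33, standard error 0.067, adjusted p = 0.00283, and 0.0626 with library totals only). PPARGC1B, a coactivator of mitochondrial genes, was lower at 15.8, 17.3 and 18.4 CPM against 26, 20 and 23.2 CPM (-0.43, standard error 0.10, adjusted p = 0.0116). It lost the call with library totals only (0.0544) and without siControl replicate 1 (0.0669).

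**Figure D5:**
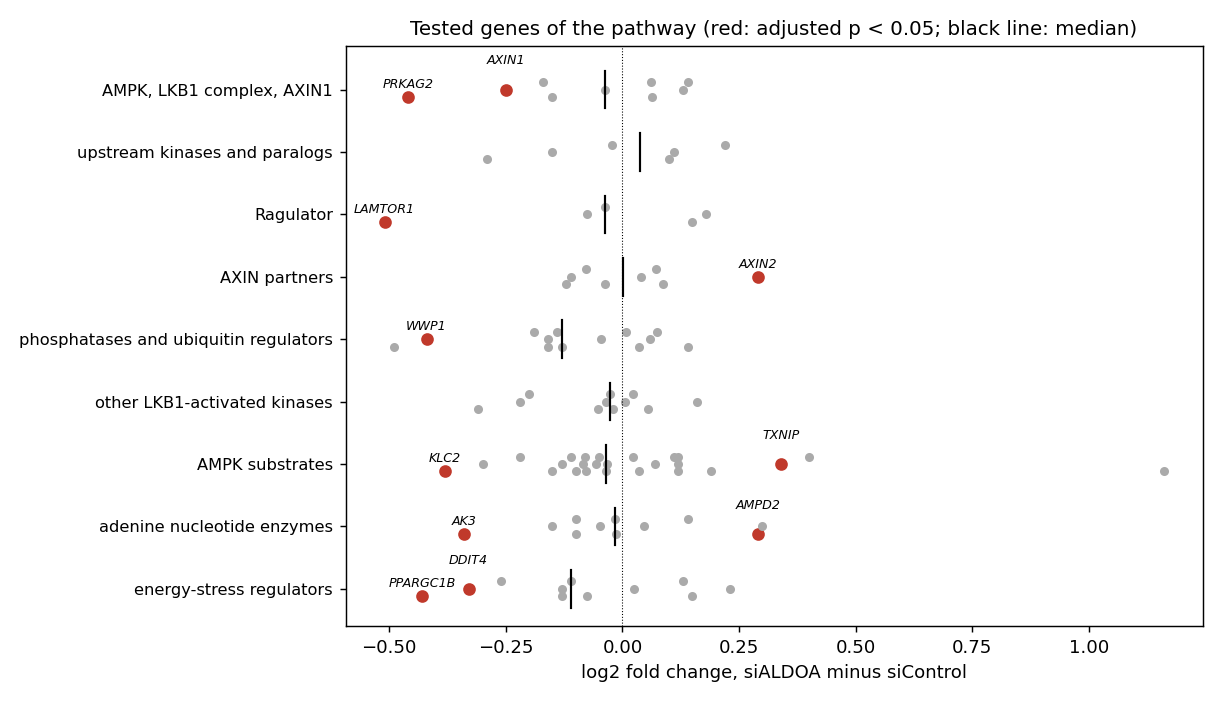
Log2 fold change of each tested gene of the 8 pathway lists and of the 9 tested members, 1 point per gene, with a black line at each median and genes at an adjusted p < 0.05 in red. The called genes of the 8 lists are WWP1, LAMTOR1, KLC2, AK3, DDIT4 and PPARGC1B below 0 and AXIN2, TXNIP and AMPD2 above 0, and the list medians lie between -0.13 and 0.041.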

How the data were processed

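RNA-Seq of HT29 cells was used from 6 libraries, 3 siALDOA and 3 siControl, taken 48 h after transfection. The authors used TopHat2 for alignment to hg38 and gfold for counting, and each of the deposited files holds whole-number counts per gene symbol, not normalized. Which annotation was counted, whether strand was used and how multiply matched reads were treated are not given in the sources used here. Each file lists 28278 genes. For a gene listed at 0 in all 6 libraries, such as EEF2K, SESN2 or LGALS4, absent mRNA and reads lost in counting cannot be told apart.

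Counts were tested in R 4.3.3 with edgeR 4.0.16 (filterByExpr, TMM, glmQLFit and glmQLFTest) and Benjamini-Hochberg adjustment over all 15307 tested genes. CPM used the TMM factors, and standard errors are the log2 fold change over the square root of F. Totals of 27277538 to 33237914 counts set the precision, so that 3 counts, the limit for a count of 0, are 0.091 to 0.108 CPM. Intervals of fold changes are 95%. Alternatives used limma 3.58.1, DESeq2 1.42.0, edgeR's likelihood ratio test, other scalings and filters, a replicate block, thinning, and each library left out. Positions and lengths came from GENCODE release 44 (hg38), matched by symbol, and promoters from RefSeq (GRCh38.p14), with an entry for 9 of the 10 members and none for STRADA.

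The members, lists and tests were chosen with earlier results of these data known. The text names ALDOA, all members, each called gene of a list or otherwise the 2 with the smallest p, and the 3 genes most like each called member. The rule also took the marker genes, of which not all are named. Other genes named with values, among them PRKAG3, STRADB, CAB39L, LAMTOR2 to LAMTOR5, APC, GSK3B, CTNNB1 and MARK1, fall outside this rule and were named after their values were seen. Differences were compared with no batch term, since the labels give no batch. The enrichment analyses and other experiments of the study were not used here.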

Additional observations from a re-analysis of the deposited data

How the results depend on the processing

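PRKAG2, LAMTOR1, WWP1, AXIN2 and AK3 were called under all 16 alternatives, AXIN1 under 13 of them, and the other 7 tested members under none. Scaling by library totals only raised the median over all tested genes from 0.0016 to 0.075 and moved the called genes from 668 higher and 810 lower to 896 and 279. It left 1 member lower (PRKAG2), turned PRKAA1 to 0.035, and gave 6 pathway genes higher and 3 lower. With the likelihood ratio test 5 pathway genes were higher and 7 lower, where 5.73% of all tested genes were higher and 6.33% lower. With no filter on low counts 5 were higher and 8 lower, where 3.97% of all tested genes were higher and 4.81% lower. At an unadjusted p < 0.01, 13 pathway genes passed, 6 of them higher, where 12.5% of all tested genes passed. Leaving out each library in turn gave 1 to 2 members lower (1 without siALDOA replicate 2 and 1 without siControl replicate 3), and 2 to 6 pathway genes higher and 5 to 8 lower. Over all genes the calls went down to 359 higher and 490 lower without siControl replicate 2, and to 363 and 471 without siControl replicate 3. As libraries were left out, 2.32% to 4.12% of all tested genes were higher and 3.05% to 5.05% lower. The PRKAG2 share of γ mRNA differed by -6.58 points when counts were not divided by length, and by -5.15 to -3.42 points as libraries were left out. Beyond these constructions the cause was not tested. With the replicate number as a block, 6 pathway genes were higher, 2 members were lower, and 987 genes were higher and 1175 lower. Deviations of same-numbered libraries correlated at 0.0348, 0.0274 and 0.0262, and each library correlated best with its own number. The labels do not say whether the numbers pair the samples, and these values do not settle it. The fit reported here used no block. At this depth a gene such as STRADA, with 246 to 363 counts, had a 95% interval of -0.14 to 0.43.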
